A study of Homo sapiens with 30 samples.

Results

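BEAS-2B cells that received air without pollen were compared between 24 h and 2h25 min after that mock exposure, with 3 arrays at each time, 6 of the 30 arrays of the series. The members are the arrays whose labels give the air condition and these times. BEAS-2B is an immortalised line of human bronchial epithelial cells. Per the labels, the cells of all groups were grown in bronchial epithelial growth medium on permeable inserts. A day later the basal medium was changed and the apical medium was taken off, and the cells then stood for 24 h at the air-liquid interface, with air above and medium below, before the exposure. Whole birch pollen was dispersed into the chamber with pressured air. The methods describe the mock cells as treated identically but shielded by a fine mesh that kept pollen out of the wells, and the dose label of 10 mg stands on their samples as well. The pollen cells, used here only for the same pair of times, received the pollen. No further change of medium is given in the sources used here, so the time after exposure, the age of the medium and the time at the interface cannot be told apart. The methods give exposures as independent repetitions on different days, without saying which arrays share a day, and all are of 1 cell line. The p-values thus measure the spread between such repetitions, pooled over the 10 groups of all 30 arrays, with no term for the array slide.

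The arrays were one-colour Agilent arrays, on which labelled RNA gives each probe a brightness. A value below is the log2 brightness of a probe relative to the 75th percentile of its array, so that 0 is the brightness of that percentile, negative values are dimmer, and a difference of 1 is 2-fold. No saturated spot was found. The share of probes well above background was 55.4%, 56.2% and 51.5% on the mock arrays of 2h25 min and 50.1%, 48.3% and 50.2% on those of 24 h, lower on every 24 h array. The part of this difference in the changes below was not tested. The number of arrays limits the precision. Mock replicate 3 of 2h25 min was on the slide that also held all 24 h arrays, and mock replicates 1 and 2 of 2h25 min were on another slide. Over 26023 probes that were bright on the arrays used, replicate 3 of 2h25 min correlated with the other 2h25 min arrays at 0.993 to 0.995 and with the 24 h arrays of its own slide at 0.984 to 0.988. This 1 array thus lay nearer to its time than to its slide. Replicates 1 and 2 of 2h25 min, on the other slide, correlated with the 24 h arrays at 0.976 to 0.987. Time and slide were therefore partly mixed, and the part of the slide in the changes was not tested. As a measure within the slide, the mean of the 24 h arrays minus replicate 3 of 2h25 min is given beside called genes and list medians where it differs from the change over all arrays by over 1.5 times or in sign.

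As background, a culture at the air-liquid interface goes through several overlapping gene programmes. Handling and fresh medium set off immediate early genes, which encode transcription factors and their inhibitors and are shut off again soon. NF-kB drives cytokines, the glucocorticoid receptor and the metal sensor MTF1 both act on metallothioneins, HSF1 drives chaperones, and p53 drives genes of growth arrest and repair. Keratins, junction proteins and matrix proteins mark the state of an epithelial sheet.

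The labelled cell type was checked first against its markers. All 10 epithelial markers were measured, among them the keratins KRT7, KRT8, KRT18 and KRT19, and 9 of them were well above background on all 6 arrays. Of the secretory and ciliated markers 6 of 10 were bright enough to test, and MUC5B, FOXJ1, TPPP3 and DNAI1 were not. The 6 tested, SCGB1A1, SCGB3A1, SCGB3A2, MUC5AC, BPIFA1 and CAPS, were above background on all 6 arrays. Of the leukocyte markers 5 of 10 were tested, with PTPRC and CD14 among them, and 3 of these were above background on all 6 arrays. CD68, TPSAB1, FCER1A and MS4A1 were among those not tested. The fibroblast genes PDGFRA, COL3A1 and LUM were not bright enough to test, while VIM, CDH2, PDGFRB, COL1A1, DCN, THY1 and FAP were. On a log2 scale, the summed brightness of the epithelial markers ranged from 7.75 to 8.35 at 2h25 min and from 7.13 to 7.50 at 24 h, that of the mesenchymal markers from 6.51 to 6.89 and from 6.21 to 6.41, that of the secretory and ciliated markers from 2.34 to 2.89 and from 1.93 to 2.53, and that of the leukocyte markers from -0.51 to 0.12 and from -0.64 to -0.54. Fewer cells of a kind and less RNA per cell cannot be told apart in such bulk samples.

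Over the day without pollen, a large part of the transcriptome differed. Of 32101 probes tested, limma called 3999 higher at 24 h, 12.5% of those tested, and 4788 lower, 14.9%. These are 27.4% together. Calling a probe took a change of 1.1-fold or more and a p under 0.05 after Benjamini-Hochberg adjustment, and adjusted p-values below are those of this fit. The median change of all probes was -0.07. Large changes were more often falls. Among the called probes, 456 were at least 2-fold higher and 1454 at least 2-fold lower, and 21 were at least 4-fold higher and 194 at least 4-fold lower. Of the 8787 called probes, 7885 were above background on all 6 arrays, 719 on all arrays of 1 time only and 183 on all arrays of neither. The large changes were not counted apart for the 7885, so the part of dim probes in the excess of falls was not tested. The groups did not overlap at 41.1% of all probes tested. When 1 probe stood for each of 24512 gene names, 12.3% were higher and 14.9% lower, 27.2% together, with a median of -0.08, which is the background for every list below. For the 20523 names above background on all 6 arrays these shares were 14.4%, 14.9% and 29.3%. Of the 14784 protein-coding genes tested 16.5% were higher and 18.1% lower, and of the 2362 long non-coding RNAs 5.63% were higher and 16.1% lower. The non-coding RNAs were dimmer, with a median level of -4.59 at 2h25 min against -0.29. Above background on all 6 arrays, 17.9% of 13510 protein-coding genes were higher and 17.6% lower. For 1712 such non-coding RNAs the shares were 7.3% and 15.9%. The log2 values that the authors deposited called 4626 probes higher and 4163 lower, so that rises outnumbered falls there. The other ways of scaling the arrays called fewer probes, 2074 in all with quantile normalization of the processed intensities. Counts for quantile normalization follow the main count of a list in parentheses, higher then lower.

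The largest rises were at LCN2, TNFRSF10D and SPMAP1. LCN2, the iron-binding defence protein lipocalin 2, lay at -1.92, -2.56 and -1.65 on the mock arrays of 2h25 min and at 0.98, 0.35 and 0.64 on those of 24 h. All 24 h values were above all 2h25 min values, and the rise was 2.70 ± 0.33 (log2, SE, n = 3 per group, adjusted p = 3.08e-06), which is 6.50-fold. Its probe lies on chromosome 9 from 130914244 to 130914303 of hg19. TNFRSF10D, a decoy receptor that binds the death ligand TRAIL without passing on a full signal, lay at -0.51, -0.24 and -0.07 at 2h25 min and at 2.57, 2.20 and 2.10 at 24 h. The groups were far apart, with a rise of 2.57 ± 0.17 (adjusted p = 1.25e-09). NFYA, the DNA-binding regulatory subunit of the CCAAT factor NF-Y, had tight 2h25 min values of -2.33, -2.25 and -2.42 and 24 h values of 0.30, -0.25 and -0.59. It rose 4.45-fold by this probe. Its second probe was called higher too, with a smaller rise of 0.79 on the log2 scale. GPR15LG, a secreted ligand of the receptor GPR15, rose 4.07-fold from -5.33, -5.51 and -5.30 to -2.95, -3.45 and -3.67. SPMAP1 rose 5.81-fold and LRRN4CL 4.40-fold. The other genes among the 12 largest rises were ZMAT3, the pseudogene ATE1OSP, the non-coding RNAs LINC02574 and PRKCZ-AS1, the read-through transcript PMF1-BGLAP and GAREM2, with rises between 1.84 and 1.94. A probe of a read-through transcript may not tell it from the genes it joins. Brightness was well above background only at 24 h for INHBB, the beta B subunit of activin and inhibin, which was at least 3.04-fold higher. The same held for the olfactory receptor gene OR52I2, at least 2.47-fold higher, whose rise within the slide was smaller. Both were picked for being above background at 24 h only, so the choice itself set their direction.

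**Figure D1:**
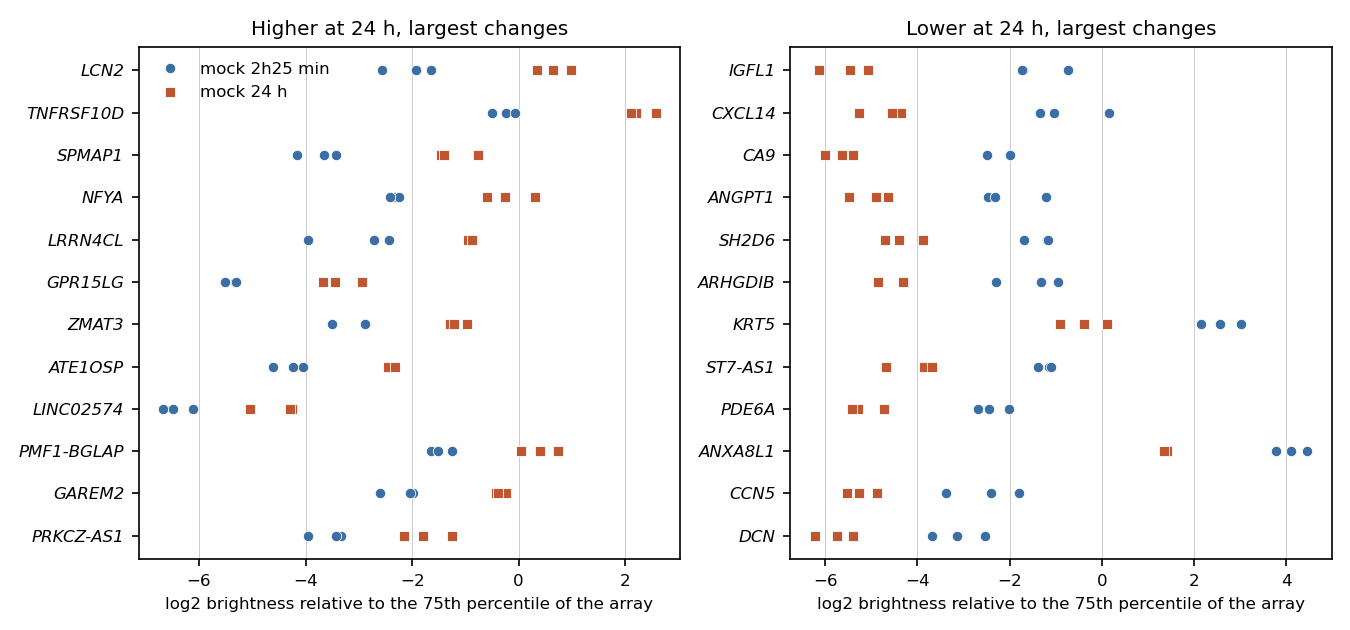
Every mock array for the 12 genes with the largest rise and the 12 with the largest fall among those well above background on all 6 arrays. The horizontal axis is the log2 brightness relative to the 75th percentile of the array, circles are 2h25 min and squares 24 h (3 arrays each). No gene shown overlaps between the times, since that was a condition for being shown, and LCN2 moves from -1.65 or lower to 0.35 or higher, while IGFL1 moves from -1.73 or higher to -5.07 or lower.

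The falls were larger than the rises. IGFL1, a member of the IGF-like family of secreted proteins, fell from -1.70, -0.73 and -1.73 at 2h25 min to -5.47, -5.07 and -6.14 at 24 h. That is a fall by 4.18 ± 0.36 on the log2 scale, or 18.1-fold (adjusted p = 5.22e-08), at a probe on chromosome 19 from 46733714 to 46733773 of hg19. CXCL14, a chemokine made constitutively by many epithelia, lay at -1.34, 0.16 and -1.03 and then at -5.27, -4.36 and -4.56. Replicate 2 of 2h25 min was the highest, and the groups did not overlap. CXCL14 fell by 3.99 ± 0.40 (adjusted p = 3.16e-07). ANGPT1, the ligand of the vascular receptor TIE2, fell 8.07-fold, ARHGDIB 7.81-fold, PDE6A, a phosphodiesterase subunit known from rod photoreceptors, 6.80-fold, and the adaptor gene SH2D6 7.90-fold. ANXA8L1, an annexin whose probe may not tell it from its close copies, had narrow values of 3.78, 4.46 and 4.11 and then 1.38, 1.41 and 1.34. It fell by 2.74 ± 0.16 (adjusted p = 2.49e-10). The non-coding RNA ST7-AS1 fell 7.33-fold and the matricellular gene CCN5 6.47-fold. Several genes were well above background at 2h25 min and on none of the 24 h arrays. The genes named here were picked for that, so the choice itself set their direction, and their 24 h values were not above background. Of these FGG, the gamma chain of fibrinogen, was at least 12.7-fold lower and KRT6B at least 9.11-fold. TENM2, a teneurin of cell contacts, was at least 6.54-fold lower, KRT38, a hair keratin, at least 6.11-fold and SLITRK6 at least 6.10-fold. KRT38 had the smallest adjusted p of all probes, 2.04e-12, but it rests on 24 h values that were not above background. A second probe of SLITRK6 was not called, at -1.13.

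Of 24 targets of p53 tested 14 rose and 0 fell (5 and 0), with a median of 0.60 against -0.08 over all gene names. TP53INP1, a p53 cofactor that acts in stress and autophagy, lay at -1.63, -1.47 and -1.52 at 2h25 min and at 0.09, 0.10 and 0.18 at 24 h. The replicates of each time were close together, and the rise was 1.67 ± 0.10 (adjusted p = 1.91e-10). ZMAT3, a zinc finger protein that binds RNA, rose by 1.94 ± 0.26, from -3.51, -2.88 and -2.89 to -1.29, -1.21 and -0.97. GDF15, a secreted stress cytokine, rose from 6.19, 5.58 and 6.19 to 7.53, 7.54 and 7.38, which is 2.82-fold (adjusted p = 1.02e-05). CDKN1A, the inhibitor p21 of cyclin-dependent kinases, lay at -1.76, -1.44 and -1.24 and then at 0.11, -0.18 and -0.17. It rose 2.64-fold (adjusted p = 0.000279). MDM2, the ubiquitin ligase that takes p53 down, rose by 1.19, BTG2, an antiproliferative factor, by 1.17, the nuclease gene AEN by 1.00, GADD45A by 0.94, SESN1 by 0.86 and the death receptor gene TNFRSF10B by 0.82. Members that were not called ranged from -0.18 for the DNA damage gene DDB2 to 0.62 for PHLDA3, and among them were the death genes BAX, BBC3, PMAIP1 and FAS. A further probe each of BAX and FAS was called higher.

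Of 20 chaperones and factors of the heat shock response tested 14 rose and 1 fell (5 and 1), with a median of 0.53. HSPA8, the constitutive cytosolic HSP70, lay at 1.94, 2.21 and 1.56 at 2h25 min and at 3.94, 3.47 and 3.17 at 24 h, a rise by 1.63 ± 0.23 (adjusted p = 1.61e-05). A second, dimmer probe of HSPA8 was not called, with a change of -0.03. The inducible HSP70 genes HSPA1A and HSPA1B, whose probes may not tell one from the other, rose 2.40-fold and 2.53-fold. HSPA1A lay at 1.33, 1.96 and 0.90 and then at 2.99, 2.55 and 2.46, so that the lowest 24 h array was above the highest 2h25 min array. HSPB8, above background on 2 of 3 arrays of 2h25 min, rose by 1.06, the mitochondrial pair HSPE1 and HSPD1 by 0.74 and 0.56, DNAJA1, a cochaperone of HSP70, by 0.72 and HSP90AA1 by 0.54. HSPB1, a small heat shock protein, went the other way, from 5.23, 5.61 and 5.28 to 4.99, 4.56 and 4.76, and fell by 0.60 ± 0.16 (adjusted p = 0.0063), by 1 of its 2 probes. The factors HSF1 and HSF2 were not called, the latter with a change of 0.21.

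Metallothioneins are small proteins that bind zinc and copper. Of 12 genes of the metallothionein list 10 fell and 1 rose (0 and 9), with a median of -1.24. MT1X lay at 2.18, 3.69 and 2.81 at 2h25 min and at 1.06, 0.70 and 1.09 at 24 h. Replicate 2 of 2h25 min was the highest and replicate 1 the lowest of its group, and the same order held for MT2A, MT1H, MT1L and MT1B. MT1X fell by 1.95 ± 0.31 (adjusted p = 6.78e-05) and MT1F by 1.50 ± 0.21 (adjusted p = 1.35e-05). MT2A, the metallothionein on the brightest probe of the list, lay at 6.94, 7.90 and 7.38 and then at 6.65, 5.89 and 6.47. Its groups did not overlap, but replicate 1 of 2h25 min was close to the 24 h values, and the fall of 1.07 ± 0.33 (adjusted p = 0.0177) was lost under 7 of 21 alternative settings, where its adjusted p reached 0.252. Probes of the MT1 genes may not tell near-identical copies apart, so their falls are not separate measurements. MTF1, the zinc sensor that binds metallothionein promoters, rose by 0.66 ± 0.13 (adjusted p = 0.000739) from 0.43, 0.00 and 0.34 to 0.95, 0.90 and 0.88. SLC30A1, the zinc exporter, fell by 0.57.

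**Figure D2:**
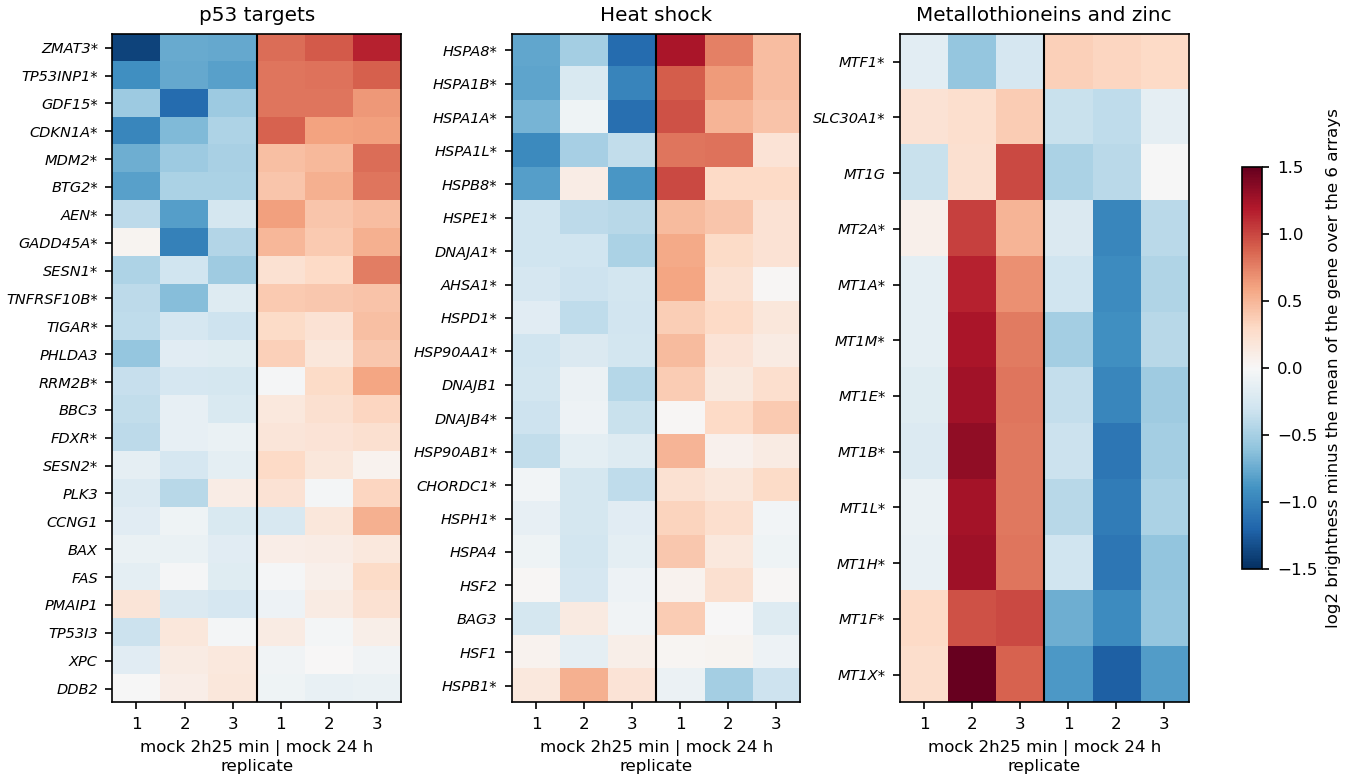
Every member tested of the p53, heat shock and metallothionein lists on each mock array, as log2 brightness minus the mean of the gene over the 6 arrays (colour scale from -1.5 to 1.5; asterisks mark called genes). The 3 columns left of the line are 2h25 min and the 3 right of it 24 h. Of the p53 targets 14 of 24 and of the chaperones 14 of 20 rose, 10 of the 12 metallothionein and zinc genes fell, and replicate 1 of 2h25 min lies nearest to the 24 h arrays for most metallothioneins.

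Promoters of genes that moved in opposite directions are shown, because metal response elements, heat shock elements and NF-kB sites are the letters through which MTF1, HSF1 and NF-kB are known to act. The sequences are the 250 bases before the start of each gene, from RefSeq on GRCh38.p14, and a match is a description of letters, not of binding. The metal response element core, searched as TGCACNC or TGCGCNC on both strands, and the heat shock element, searched on both strands as alternating GAA, TTC and GAA units, were chosen after the values had been seen. The metal element was in 5 of the 6 promoters of the metallothionein list found in the table, 83.3%, and in 24.7% of all 27305 promoters. Capitals mark it in MT2A (chr16:56608334-56608583, + strand, 7 matches) and MT1X (chr16:56682220-56682469, + strand, 4 matches):
MT2A: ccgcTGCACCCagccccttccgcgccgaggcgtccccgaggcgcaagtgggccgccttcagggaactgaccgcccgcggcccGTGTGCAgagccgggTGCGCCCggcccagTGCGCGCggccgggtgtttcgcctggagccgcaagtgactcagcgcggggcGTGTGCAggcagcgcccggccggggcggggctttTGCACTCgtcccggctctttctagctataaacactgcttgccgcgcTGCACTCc
MT1X: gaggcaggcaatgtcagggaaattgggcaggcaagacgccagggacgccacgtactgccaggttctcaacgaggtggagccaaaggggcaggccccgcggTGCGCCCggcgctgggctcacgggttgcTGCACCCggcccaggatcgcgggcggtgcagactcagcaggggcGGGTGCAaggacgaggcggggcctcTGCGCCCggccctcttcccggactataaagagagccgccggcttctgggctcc
The heat shock element in this strict form was in 2 of 19 promoters of the chaperone list, those of HSPA8 and CHORDC1, 10.5%, and in 0.439% of all promoters. Capitals mark its 2 matches, 1 per strand, in HSPA8 (chr11:123062137-123062386, - strand):
HSPA8: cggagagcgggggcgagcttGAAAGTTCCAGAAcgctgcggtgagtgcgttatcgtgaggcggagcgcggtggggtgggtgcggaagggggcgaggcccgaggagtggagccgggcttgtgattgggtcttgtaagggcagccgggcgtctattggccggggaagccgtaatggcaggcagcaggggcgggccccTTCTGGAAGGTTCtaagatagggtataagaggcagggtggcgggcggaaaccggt
The NF-kB site, searched on both strands, was in 12 of 34 promoters of the NF-kB and cytokine list, 35.3%, in 12 of 29 of the interferon-stimulated genes, 41.4%, and in 9.57% of all. Capitals mark it in CXCL1 (chr4:73869143-73869392, + strand, 2 overlapping matches) and CCL20 (chr2:227813592-227813841, + strand, 1 match), both of which fell:
CXCL1: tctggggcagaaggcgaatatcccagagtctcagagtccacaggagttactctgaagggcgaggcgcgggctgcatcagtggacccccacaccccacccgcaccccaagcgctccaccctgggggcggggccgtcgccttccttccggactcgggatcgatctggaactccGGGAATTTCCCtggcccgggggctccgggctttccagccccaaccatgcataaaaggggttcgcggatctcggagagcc
CCL20: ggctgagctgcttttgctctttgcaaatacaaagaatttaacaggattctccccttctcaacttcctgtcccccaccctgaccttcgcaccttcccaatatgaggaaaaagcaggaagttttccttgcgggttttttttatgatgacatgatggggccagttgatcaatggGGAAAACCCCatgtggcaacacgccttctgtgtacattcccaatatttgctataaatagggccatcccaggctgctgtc

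Of 39 cytokines and NF-kB targets tested 14 fell, 0 rose and 25 were not called (0 and 3 with quantile normalization), with a median of -0.45. CCL2, which draws monocytes, lay at -1.88, -1.31 and -1.31 at 2h25 min and at -4.26, -4.20 and -3.63 at 24 h, a fall by 2.53 ± 0.25 (adjusted p = 3.07e-07). CXCL1, which draws neutrophils, lay at 1.86, 1.23 and 1.20 and then at -0.65, -0.44 and -0.63, and fell 4-fold (adjusted p = 0.000307). CCL20, a ligand of CCR6, fell 4.64-fold from -2.84, -3.32 and -2.93 to -5.57, -5.01 and -5.16 (adjusted p = 0.00174). The groups of these 3 chemokines were apart by more than 1 on the log2 scale. CXCL8, the neutrophil chemokine interleukin 8, was measured above background on 1 of 3 24 h arrays. It lay at -3.74, -4.01 and -4.17 and then at -8.67, -8.38 and -6.14 (adjusted p = 0.000282). PTGS2, the inducible cyclooxygenase, and TNF were called lower (adjusted p = 0.0426 and 0.0276), but they were above background on 2 of 3 arrays of 2h25 min and none of 24 h, so no size is given. IL1B fell by 1.13, the cytokine signalling inhibitor SOCS3 by 0.89, and the pathway genes RELB and NFKB1 by 0.61 and 0.37. IL6 was not called, at -0.04, and neither were the epithelial cytokines IL33 and TSLP, which were above background on 3 of the 6 arrays each.

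Of 37 interferon-stimulated genes 17 fell, 2 rose and 18 were not called (0 and 5 with quantile normalization), with a median of -0.38. IFI44L lay at -0.69, -0.10 and -0.52 at 2h25 min and at -2.91, -2.42 and -2.29 at 24 h, a fall by 2.11 ± 0.21 (adjusted p = 4.22e-07). OASL, a relative of the antiviral OAS enzymes, fell 3.16-fold, from -2.91, -3.26 and -3.14 to -4.78, -4.94 and -4.56. XAF1, a proapoptotic factor, fell 4.32-fold and was above background on 2 of 3 24 h arrays. RSAD2, the antiviral enzyme viperin, was above background on no 24 h array and at least 1.82-fold lower. OAS1, above background on 2 of 3 24 h arrays, fell by 0.99 and IFIT1 by 0.74, while ISG15 and MX1 were not called. HERC5, a ligase for ISG15, rose by 0.61 and B2M, the light chain of class I HLA, by 0.35, a call kept under 11 of 21 alternative settings. The summed brightness of the list ran the other way from its median, from 9.15 to 9.36 at 2h25 min and from 9.47 to 9.53 at 24 h, since sums weigh bright probes most.

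Genes of the early response moved both ways. Of 35 immediate early genes 7 fell and 4 rose (1 and 2), with a median of -0.03 over all arrays and -0.10 within the slide. These are 20% and 11.4%, not far from the 14.9% lower and 12.3% higher of all gene names. NR4A3, an orphan nuclear receptor, lay at -2.58, -3.03 and -2.46 at 2h25 min and at -4.25, -4.31 and -4.66 at 24 h. It fell by 1.71 ± 0.26 (adjusted p = 3.16e-05). ID1, ID2 and ID3, inhibitors of basic helix-loop-helix factors, fell by 1.41, 1.21 and 0.68, and JUNB by 0.89. In contrast JUN rose by 1.29 ± 0.34 (adjusted p = 0.00676), from a wide group of 1.83, 0.19 and 0.85 to 2.09, 2.49 and 2.14. ATF3, a stress factor of the same family, rose by 1.09 ± 0.34 (adjusted p = 0.0206), with 3 of its 4 probes called, and lost the call under 10 of 21 alternative settings. FOS, FOSB and EGR1 were not called, at -0.78, -1.10 and -0.03. Feedback genes of the MAP kinase pathway gave 3 rises, 13%, and 1 fall, 4.35%, of 23 (0 and 0), with a median of 0.06 over all arrays and -0.06 within the slide. Of these DUSP8, a MAP kinase phosphatase, rose by 1.00, the ERK-induced gene ETV5 and the inhibitor SPRY4 by 0.65 each, and SPRY1, its relative, fell by 0.65. For DUSP8 2 of 3 probes were called, and the remaining one lay at -0.26. For SPRY4 and SPRY1 1 of 2 probes each was called. Within the slide ETV5 rose by 0.21 and SPRY4 by 0.29, and their calls were kept under 11 and 8 of 21 alternative settings.

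Of the 15 genes that the study named for the mock response 4 fell and 0 rose (0 and 2), with a median of -0.17 over all arrays and -0.34 within the slide. That list was chosen by the study on samples of this series and is not independent evidence of a direction. ANGPTL4, a secreted inhibitor of lipoprotein lipase, lay at 0.97, 1.44 and 0.75 at 2h25 min and at -0.72, -1.04 and -0.90 at 24 h. The groups were far apart, with a fall by 1.94 ± 0.34 (adjusted p = 0.000158). SOCS3 fell from -0.54, -0.77 and -0.29 to -1.14, -1.77 and -1.34, MT1B by 1.27 and the cell cycle regulator RGCC by 0.59. The other 11 were not called and ranged from -1.10 to 0.16, with FOSB, EREG, C8G, TRIB1, DUSP6, SERTAD1, CITED4, IL6, SNAI1, CSNK1G2 and DUSP5 in rising order of change, and 5 of them turned sign under at least 1 alternative setting. Targets of the glucocorticoid receptor gave 11 falls and 1 rise of 21 (0 and 4), with a median of -0.56. They share ANGPTL4, MT1X, MT2A and PER1 with other lists, and further falls were PDK4 and the kinase SGK1 by 0.92 each, TSC22D3, an anti-inflammatory leucine zipper protein, by 0.86 and FKBP5, which holds the receptor inactive, by 0.40. The thiamine transporter SLC19A2 rose by 0.46.

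Of 19 clock genes tested 5 fell and 0 rose (0 and 0), with a median of -0.23 over all arrays and -0.13 within the slide. DBP, an output factor of the clock, lay at -0.80, -0.72 and -0.89 at 2h25 min and at -1.55, -1.41 and -1.88 at 24 h. It fell by 0.81 ± 0.12 (adjusted p = 3.48e-05). PER1, a repressor of the clock, lay at 0.95, 1.02 and 1.24 and then at 0.73, 0.42 and 0.37, and fell by 0.56. The repressor NR1D1 fell by 0.50, BHLHE40 by 0.49 and TEF by 0.40, all with adjusted p-values between 0.0264 and 0.0382 and with calls kept under 9, 11 and 9 of 21 alternative settings. The other 14 were not called, among them PER2, RORA, NR1D2, HLF, NFIL3, BHLHE41, BMAL1, PER3, CIART, CRY2, NPAS2, CLOCK and CRY1 in rising order of change, and 7 of the 14 turned sign under some setting. A second probe of CLOCK was called higher, at 0.63.

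Of 39 genes of keratins, junctions and squamous differentiation 19 fell and 6 rose (1 and 10), with a median of -0.54. KRT5, a basal cell keratin, lay at 2.15, 3.02 and 2.56 at 2h25 min and at 0.12, -0.90 and -0.39 at 24 h. All 24 h arrays were lower by more than 2 than the lowest of 2h25 min, and KRT5 fell by 2.96 ± 0.31 (adjusted p = 5.33e-07). KRT6A, a keratin of stressed and migrating epithelium whose probe may share copies with KRT6B, fell from 1.23, 2.76 and 1.92 to 0.01, -0.42 and -0.07, 4.38-fold. KRT19 fell 3.15-fold from 4.33, 5.65 and 4.91 to 3.41, 3.52 and 2.99, and KRT7 1.98-fold. KRT16 fell by 1.68, KRT15 by 1.65, KRT14 by 0.80 and KRT17 by 0.75. A second probe of KRT14 was called lower as well and fell by far more, with a change of -4.08. The calcium-binding alarmins S100A8 and S100A9 fell by 2.30 and 1.43, TGM1, a crosslinking enzyme of the cornified envelope, by 1.17 and CDH1, which is E-cadherin, by 0.54. TP63, the basal cell factor, was above background on no 24 h array and at least 1.73-fold lower. The tight junction genes OCLN, CLDN4 and CLDN1 rose by 0.86, 0.63 and 0.59, although a second probe of CLDN4 was not called and lay at -1.01. EPCAM, an adhesion protein of epithelia, rose from 1.04, 1.04 and 1.34 to 2.12, 2.05 and 1.69, 1.76-fold (adjusted p = 0.0022). Of the epithelial markers as a list 8 of 10 fell and 1 rose (0 and 4).

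Of 36 matrix and TGF-beta genes 19 fell and 2 rose (1 and 8), with a median of -0.56, and of 7 mesenchymal markers 6 fell and 0 rose (0 and 5), with a median of -1.51. DCN, the collagen-binding proteoglycan decorin, lay at -3.68, -2.53 and -3.14 at 2h25 min and at -6.22, -5.39 and -5.75 at 24 h. It fell by 2.67 ± 0.27 (adjusted p = 3.48e-07). MMP9, a gelatinase, fell 5.93-fold from -2.54, -1.28 and -1.62 to -4.36, -4.72 and -4.06, and FAP, a surface protease of activated fibroblasts, 6.92-fold, with 2 of 3 24 h arrays above background. LTBP2, which binds to fibrillin, was above background on no 24 h array and at least 3.80-fold lower. PDGFRB fell 2.85-fold by 1 of its 2 probes, the other one lying at 0.13 and not called. The 2h25 min replicates disagreed on collagen I. COL1A1 lay at 0.10, -0.23 and -1.76 and then at -2.41, -2.19 and -2.62, with the lowest 2h25 min value on the array that shares the slide of 24 h. Its fall was 1.77 ± 0.53 (adjusted p = 0.0151) over all arrays and 0.64 within the slide. COL1A2 lay at -2.61, -2.74 and -5.44 and then at -6.38, -6.02 and -6.18, with a fall of 2.60 ± 0.88 (adjusted p = 0.0301, 2 of 3 24 h arrays above background) over all arrays, 0.75 within the slide and the call kept under 8 of 20 alternative settings. The part of the slide in these values was not tested. TGFBI fell by 1.80, the crosslinking enzyme LOX by 1.60, FN1, which is fibronectin, by 0.97 and SPARC by 0.95. COL5A1 rose by 0.86, with 1 of 3 probes called, and TIMP2 by 0.40, a call kept under 10 of 21 alternative settings. Targets of YAP and SRF gave 8 falls and 3 rises of 31 (1 and 3), with a median of -0.19. Smooth muscle actin ACTA2 rose 3.37-fold, from -2.04, -1.45 and -0.75 to 0.29, 0.06 and 0.67 (adjusted p = 0.000909), AXL by 0.72 and TAGLN2 by 0.55, whose call was kept under 10 of 21 alternative settings. Within the slide these rises were 1.09, 1.13 and 0.36. CCN2, described with the pollen cells below, ANKRD1 and NT5E fell by 2.57, 0.90 and 1.05.

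**Figure D3:**
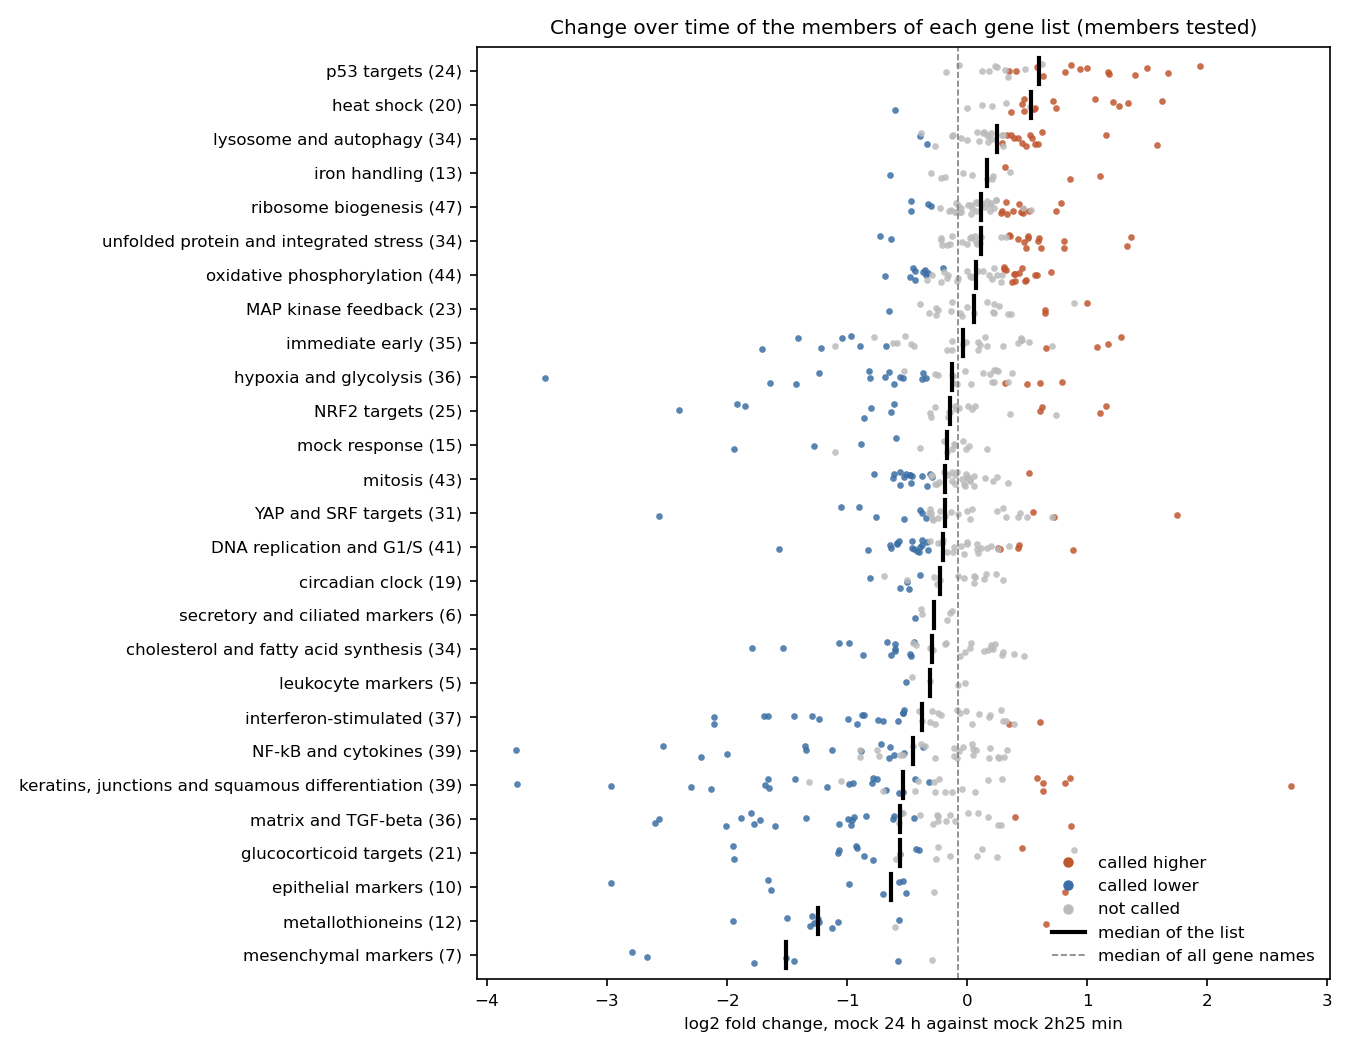
The log2 fold change of every tested member of the gene lists between mock at 24 h and at 2h25 min, 1 point per gene. Orange points were called higher, blue ones lower and grey ones not called, black bars are list medians and the dashed line is the median of all gene names, -0.08. The medians run from 0.60 for p53 targets to -1.51 for mesenchymal markers, and most lists hold members on both sides of 0.

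The unfolded protein and integrated stress genes gave 14 rises and 2 falls of 34 (2 and 2), with a median of 0.11. HSPA5, the chaperone BiP of the endoplasmic reticulum, lay at 2.09, 1.32 and 1.81 at 2h25 min and at 3.21, 3.13 and 2.87 at 24 h, a rise by 1.33 ± 0.20 (adjusted p = 2.88e-05). PPP1R15A, which reverses the phosphorylation of eIF2 alpha, rose from 1.83, 0.89 and 1.67 to 3.02, 2.78 and 2.68, 2.58-fold (adjusted p = 8.77e-05). DNAJB9, a cochaperone of BiP, and the secreted STC2 rose by 0.81 each. The amino acid synthesis genes PHGDH and ASNS fell by 0.73 and, by 1 of 3 probes, 0.63, and DDIT3, ATF4 and TRIB3 were not called. Genes of the lysosome and autophagy gave 14 rises and 2 falls of 34 (3 and 0), with a median of 0.25. MAP1LC3B, the LC3 protein of autophagosomes, lay at 2.85, 2.05 and 2.40 and then at 4.19, 3.97 and 3.89. The groups were apart by more than 1, and the rise was 3.00-fold (adjusted p = 3.44e-06). SQSTM1, the autophagy receptor p62, rose by 1.16 ± 0.18 (adjusted p = 4.87e-05), the lysosomal membrane protein CD63 by 0.59 and LAMP1 by 0.54. TFEB, the factor of lysosomal genes, fell by 0.39, by 1 of its 2 probes.

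Iron and redox genes split by member. Of 13 genes of iron handling 3 rose and 1 fell (2 and 0), with a median of 0.16. FTL, the ferritin light chain, lay at 4.45, 4.31 and 4.31 at 2h25 min and at 5.72, 5.46 and 5.22 at 24 h, and all 3 probes were called. It rose by 1.11 ± 0.12 (adjusted p = 7.75e-07). TFRC, the transferrin receptor, rose by 0.86 ± 0.19 (adjusted p = 0.00179), the iron transporter SLC11A2, by 1 of its 2 probes, by 0.31 over all arrays and 0.20 within the slide, a call kept under 8 of 21 alternative settings, and HFE fell by 0.64. Of 25 targets of NRF2, the factor of the oxidative stress response, 7 fell and 4 rose (3 and 4), with a median of -0.14 over all arrays and -0.08 within the slide. The aldo-keto reductases fell most. AKR1B10 fell 5.27-fold, with 2 of 3 24 h arrays above background, and AKR1C3 and AKR1C1, whose probes may not be fully specific, fell 3.77-fold and 3.62-fold. NQO1 fell by 0.80, while the rises were FTL, SQSTM1, and the thiol genes PRDX1 and TXN by 0.62 and 0.61. HMOX1, TXNRD1 and SRXN1 were not called.

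Hypoxia and glycolysis genes gave 14 falls and 4 rises of 36 (1 and 6), with a median of -0.13 over all arrays and -0.20 within the slide. CA9, a carbonic anhydrase of the cell surface that is known as a hypoxia target, lay at -2.49, -2.0 and -2.0 at 2h25 min and at -5.39, -5.64 and -6.00 at 24 h. Every 24 h array was lower by more than 2, and CA9 fell by 3.51 ± 0.26 (adjusted p = 6.07e-09). CA12 was above background on no 24 h array and at least 1.48-fold lower. ALDOC, an aldolase, fell by 1.24, DDIT4, an mTOR inhibitor, by 0.82, ENO1 by 0.81, LDHA by 0.68 and PDK1 by 0.56. ENO2, BNIP3L and KDM3A rose by 0.79, 0.61 and 0.50, and VEGFA and SLC2A1 were not called. Cholesterol and fatty acid synthesis genes gave 13 falls and 0 rises of 34 (0 and 8), with a median of -0.29. The desaturase genes FADS2 and FADS1, which lie side by side, fell by 1.79 ± 0.22 (adjusted p = 3.04e-06, 1 of 2 probes) and 1.06 ± 0.12 (adjusted p = 2.06e-06). FADS1 lay at 4.92, 5.03 and 4.90 and then at 3.75, 4.0 and 3.90. SREBF1, the factor of fatty acid synthesis, fell by 0.87 by 1 of its 2 probes, the other one lying at 0.10 and not called. HMGCS1 was not called, at 0.47. Genes of oxidative phosphorylation split, with 14 rises and 10 falls of 44 (2 and 3) and a median of 0.07 that turned sign under 3 other scalings of the arrays, where it was between -0.02 and -0.01. NDUFS1, a core subunit of complex I, lay at 3.82, 3.85 and 3.86 at 2h25 min and at 3.11, 3.22 and 3.16 at 24 h, and fell by 0.68 ± 0.09 (adjusted p = 4.9e-06). NDUFA2, a small accessory subunit, lay at 4.47, 4.49 and 4.36 and then at 5.22, 5.28 and 4.91, and rose by 0.70 ± 0.10 (adjusted p = 3.01e-05).

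Of 43 mitosis genes 15 fell and 1 rose (0 and 4), with a median of -0.19, and none was called with the percentile taken over all probes of each array. KIF20A, a kinesin of cytokinesis, fell by 0.78 ± 0.17 (adjusted p = 0.00172), from 0.49, 1.17 and 0.51 to -0.08, -0.02 and -0.07, and KIF18A by 0.62. UBE2C, the ubiquitin-conjugating enzyme of the anaphase complex, rose by 0.52, from 4.71, 4.75 and 4.58 to 5.19, 5.21 and 5.19. MKI67, CDK1 and CCNA2 were not called, with changes between -0.16 and 0.03. Of 41 genes of DNA replication 18 fell and 5 rose (0 and 7), with a median of -0.20. MCM6, a subunit of the replicative helicase, fell by 0.83 ± 0.10 (adjusted p = 3.37e-06). The phosphatase CDC25A and the polymerase clamp PCNA, which is also induced by p53, rose by 0.88 and 0.42. Of 47 genes of ribosome biogenesis 12 rose and 4 fell (0 and 1), with a median of 0.12. RRP12 and RRP1B, factors of rRNA processing, rose by 0.78 and 0.74, and the box C/D proteins NOP58 and FBL fell by 0.47 and 0.32, the latter a call kept under 11 of 21 alternative settings. Of the secretory and ciliated markers 1 of 6 fell, CAPS by 0.43 (0 and 0), and of the leukocyte markers 1 of 5, CD14 by 0.51 (0 and 0), with calls kept under 7 and 9 of 21 alternative settings. The median of the leukocyte markers was -0.31 over all arrays and -0.08 within the slide.

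To place both times in the course of the mock cells, levels at the 5 times are given as group means with no test, since these arrays are shared with the comparison. All arrays of 6h50 min were on a slide of their own, so that this time and its slide cannot be told apart. LCN2 was at -2.22 at 10 min, -2.53 at 55 min, -2.04 at 2h25 min, -1.39 at 6h50 min and 0.66 at 24 h. HSPA8 was at 1.49, 1.72, 1.90, 1.66 and 3.53 at these times, so that it had not risen by 6h50 min. TP53INP1 ran at -1.61, -1.51, -1.54, -0.87 and 0.13. KRT5 was at 2.90, 2.83, 2.58, 1.85 and -0.39, and CA9 at -2.06, -2.17, -2.16, -2.94 and -5.68. The first 3 times were close to each other for these genes, and 24 h was the extreme. A different course was seen for NR4A3, which was at -4.70 at 10 min, -2.39 at 55 min, -2.69 at 2h25 min, -4.23 at 6h50 min and -4.40 at 24 h, near its first level. CCN2 peaked at 55 min with 2.00 and was at 0.82 at 10 min and -1.78 at 24 h, below where it started. ANGPTL4 was at -0.23, 1.03, 1.05, -0.34 and -0.89. For these 3 genes 2h25 min was on the way down from, or part of, an early maximum.

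**Figure D4:**
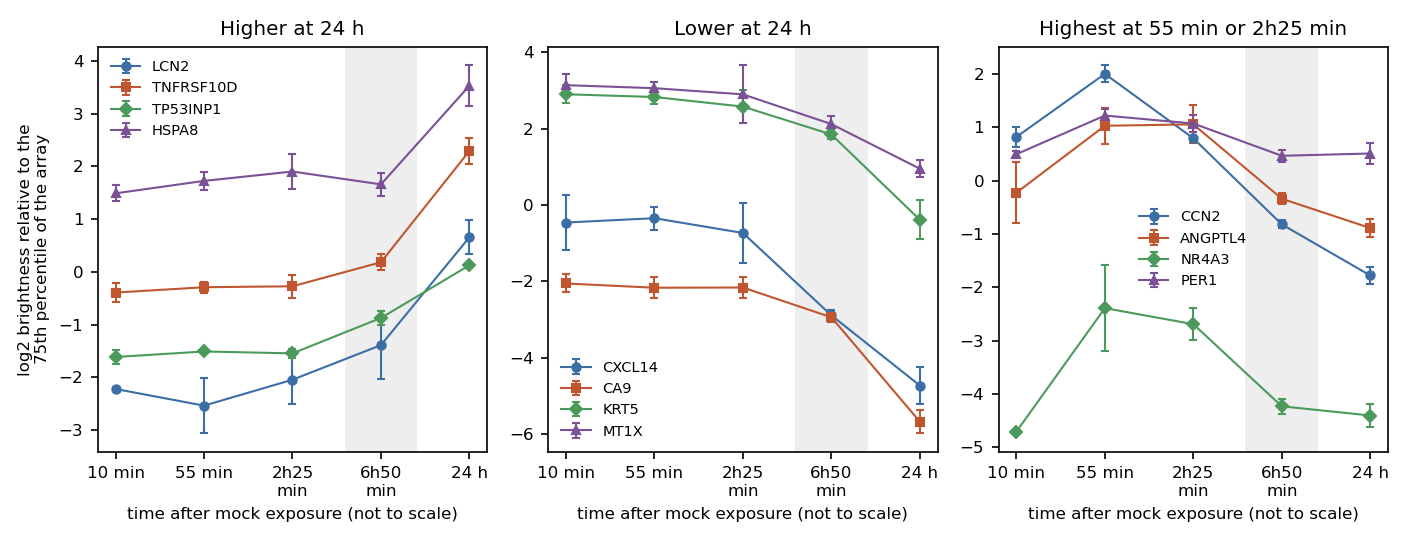
Mean log2 brightness of 12 genes at the 5 mock times (error bars are the SD over 3 arrays; the time axis is not to scale; the shaded time, 6h50 min, was on a slide of its own). HSPA8 stays between 1.49 and 1.90 until 6h50 min and reaches 3.53 at 24 h, while NR4A3 and CCN2 have their highest mean at 55 min.

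The same times were compared in pollen cells, which are other arrays, with 2h25 min and 24 h on the same slides as their mock counterparts. In pollen cells 3604 probes, 11.2%, were higher at 24 h and 3786, 11.8%, lower. Of all calls, 5823 were shared in the same direction, 66.3% of those in mock and 78.8% of those in pollen, and 0 were opposite. Of the mock calls, 98.6% had the same sign in pollen. LCN2 rose by 2.78 in pollen cells against 2.70 in mock, TNFRSF10D by 2.42 against 2.57, KRT5 fell by 2.51 against 2.96, MT1X by 1.82 against 1.95 and CA9 by 3.35 against 3.51. Of the p53 targets 14 rose and 0 fell in pollen, of the chaperones 11 rose and 1 fell, and of the metallothionein list 10 fell. Among the lists with more falls in pollen than in mock cells were the mock response genes with 10 of 15 against 4 and the NF-kB targets with 23 of 39 against 14. Others were the immediate early genes with 18 of 35 against 7 and the MAP kinase feedback genes with 10 of 23 against 1. Lists with fewer falls in pollen included mitosis with 9 of 43 against 15, oxidative phosphorylation with 4 of 44 against 10 and DNA replication with 16 of 41 against 18. These differences in number were not tested.

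A test of the difference between the changes called 2 probes, 0.00623% of those tested, those of CCN2 and DUSP6. An unadjusted p under 0.05 was reached by 1056 of 32101 probes, which is fewer than that threshold would pass if no probe differed. CCN2, a matricellular protein known as connective tissue growth factor, lay at 0.78, 0.77 and 0.83 in mock at 2h25 min and at -1.90, -1.85 and -1.59 at 24 h. In pollen it lay at 2.33, 2.30 and 2.07 and then at -2.25, -2.12 and -2.17. Mock cells were lower than pollen cells at 2h25 min and higher at 24 h, and the differences at each single time were not tested here. The paper lists CCN2 and DUSP6 among the genes that pollen raised at 2h25 min, and it reports no gene changed by pollen at 24 h. CCN2 fell by 2.57 ± 0.12 in mock and by 4.41 ± 0.12 in pollen, and the changes differed by 1.84 ± 0.17 (adjusted p = 7.57e-06). DUSP6, the phosphatase that switches off ERK, lay at 0.50, 0.26 and 0.71 and then at 0.39, 0.27 and 0.44 in mock, and at 1.66, 1.78 and 1.40 and then at -0.20, -0.18 and 0.02 in pollen. It was not called in mock, where its change was -0.12, and fell by 1.74 ± 0.16 in pollen, so that the changes differed by 1.61 ± 0.23 (adjusted p = 0.00613). The probe of CCN2 lies on chromosome 6 from 132270130 to 132270189 and that of DUSP6 on chromosome 12 from 89742144 to 89742203 of hg19.

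**Figure D5:**
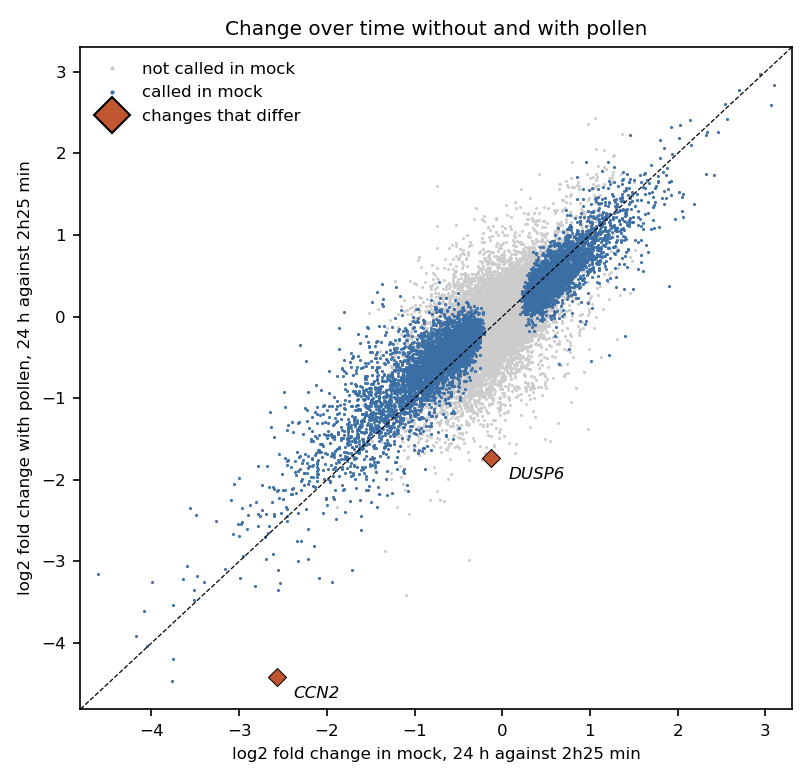
The log2 fold change between 24 h and 2h25 min of each of the 32101 probes in mock cells (horizontal) and in pollen cells (vertical), with blue points called in mock, grey ones not called and a dashed line of equal change. The probes lie along the line of equal change, and the diamonds mark CCN2 and DUSP6, whose changes differed between mock and pollen, by 1.84 and 1.61.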

How the data were processed

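The authors deposited the spot intensities of each array, which per the file headers Agilent Feature Extraction 11.0.1.1 had corrected for background and spatial trend on each array (hg19), and log2 values for all arrays, used here as an alternative only. Gene names were updated through the accession of a probe with RefSeq. In R 4.3.3, spots marked as outliers were left out, replicate spots averaged, and the 75th percentile over the probes on both array designs was subtracted on the log2 scale. Probes that exceeded background in all 3 replicates of some group entered a single limma 3.58.1 model (lmFit, eBayes) of 10 group means over 30 arrays, with Benjamini-Hochberg adjustment. The members and lists were chosen with earlier results of these data known.

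A gene is shown by its probe with the highest mean. Named are, per direction, the 12 largest non-overlapping changes above background on all 6 arrays, up to 5 genes above background in 1 group only (fold as a lower bound, against the dimmest probe above background or the own value) and up to 4 members per list, and every member of the mock response and clock lists. Further members given with values were picked from the lists for their role after their values were seen. Equal replicate numbers did not pair the arrays of both times (correlations of deviations 0.034, 0.098 and -0.055). Alternatives concerned background correction, scaling, filters, arrays in the fit, slide, replicates and probes. The fit was tested on simulated data. Some genes are not reported here.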

Additional observations from a re-analysis of the deposited data

Results flagged for a closer look

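The change over time differed between mock and pollen cells at CCN2, by 1.84 on the log2 scale (limma adjusted p = 7.57e-06), and at DUSP6, by 1.61 (adjusted p = 0.00613). CCN2 passed the test under all alternative settings except the shared slide alone, where the difference was 1.65 (adjusted p = 1). DUSP6 failed it with normexp and quantile normalization, with the percentile over all probes of each array, with quantile normalization of the processed intensities, with only the compared arrays in the fit (adjusted p = 0.132) and on the shared slide alone, where the difference was 1.18, and passed it otherwise.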

How the results depend on the processing

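The main counts of 3999 probes higher, 4788 lower, 7390 called in pollen and 2 with a difference became 1296, 1500, 1950 and 1 with normexp background correction and quantile normalization, 1700, 2011, 2516 and 1 with the 75th percentile over all probes of each array, and 749, 1325, 1419 and 1 with quantile normalization of the processed intensities. With only the compared arrays in the fit 2423 were higher, 3058 called in pollen and 1 differed. The smallest limma adjusted p in mock was then 0.00302, against 2.04e-12 in the main fit. Array weights gave 4 that differed. With the slide as a fixed block 2659 were higher and 4485 called in pollen. On the slide that holds both times alone, with 1 array of 2h25 min that is assumed to vary like the 24 h group, 211 were higher, 487 lower, 13 called in pollen and 0 differed. Leaving out 1 array gave 2814 to 3766 higher, 3657 to 4330 lower, 4969 to 6851 in pollen and 2 to 3 that differed. Of the main calls, 2066 of 8787 were also called with quantile normalization and 673 of 8786 on the shared slide alone, and 0 were called the other way under any setting. With the replicate number as a block 8468 probes were called in mock, and 157 of the 160 called named genes kept their call. Without pairing, 93 of the 160 kept it with quantile normalization, 99 with normexp, 110 with the percentile over all probes and 46 on the shared slide alone. With the slide as a random block, chosen after seeing the data, 3522 were higher and 4381 lower, and the consensus correlation of arrays of a slide was 0.268. The causes were not tested. The precision of dim probes is limited by their signal over background.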
